A study of Homo sapiens with 54 samples.

Results

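CXCL9, CXCL10 and CXCL11 are the chemokines that bind the receptor CXCR3, and their levels were followed in HT-29 cells through all 9 treatments and 3 times of the series. The members are the probe sets that the platform annotation gives to these symbols, which are 4 probe sets of 22215 and 3 genes of 11963: 203915_at for CXCL9, 204533_at for CXCL10, and 210163_at and 211122_s_at for CXCL11. A probe set is a group of short probes on an Affymetrix array that are read as 1 signal. For CXCL11 the probe set with the higher mean, 210163_at, stands for the gene and 211122_s_at is given beside it. All 4 passed the filter on low signal described below.

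CXCL9, CXCL10 and CXCL11 are small secreted proteins that draw activated T cells and natural killer cells, which carry CXCR3 on their surface. Interferon-gamma induces all 3, and the promoters of genes that answer interferons often hold GAS elements or interferon-stimulated response elements (ISRE). Tumour necrosis factor (TNF) adds NF-kB, which binds kappa-B sites, and epithelial cells that meet both cytokines are a known source of these chemokines in the inflamed colon.

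HT-29 is a line of human colon adenocarcinoma cells. Every group of the series, the untreated one included, had first received interferon-gamma at 200 U/ml for 24 h, so the levels below are those of primed cells and no unprimed cells were analysed here. The primed cells then had no further agent or 1 agent alone, which was TNF (5 or 100 ng/ml), epidermal growth factor (EGF, 100 ng/ml) or insulin (500 ng/ml). In the 4 mixtures the low dose of TNF was given with 1 ng/ml of EGF or 5 ng/ml of insulin, and the high dose with 100 ng/ml of EGF or 500 ng/ml of insulin. RNA was taken after 4, 8 or 16 h, from biological duplicates by the series' own account, which gave 27 groups of 2 arrays and 54 arrays in all. All of them come from a single cell line, and in such bulk RNA fewer expressing cells and less RNA per cell cannot be told apart.

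The signals are linear MAS5 values on a common scale, with a mean after trimming 2% at each end of 500.2 on every array. Markers of colon epithelium were bright, with EPCAM between 4870 and 10500 and KRT8 between 9880 and 17300, and 10 of 12 passed the filter. CDX1 and CDX2, which define the intestinal lineage, did not pass it. Of the markers of other cells, 2 of 6 for T cells, 2 of 5 for leukocytes and myeloid cells, 2 of 2 for B cells, 1 of 4 for endothelium and 3 of 6 for fibroblasts passed. The summed signal of the 6 T cell markers ran from 156 to 652 without TNF, from 228 to 596 with TNF at 5 ng/ml and from 208 to 606 at 100 ng/ml. That of the 5 leukocyte and myeloid markers ran from 248 to 423 without TNF, from 290 to 677 at 5 ng/ml and from 297 to 717 at 100 ng/ml, and its part in the TNF results was not tested. The log2 ratio of the 3' to the 5' probe set of ACTB was higher on the replicate 2 arrays at 8 h (median 0.322, against -0.217 for replicate 1) and at 16 h (0.314 against 0.047), and -0.034 against -0.129 at 4 h. The ranges of both replicates were apart at 8 h alone.

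The promoters of the 3 genes are shown because they differ in which motifs of the interferon and TNF pathways they hold. Each is 300 bases of RefSeq sequence from GRCh38.p14, from 250 bases before to 50 after the start of the gene, read along the gene's own strand, which is the minus strand for all 3. CXCL9 is at chr4:76007460-76007759, CXCL10 at chr4:76023448-76023747 and CXCL11 at chr4:76036021-76036320. Capitals mark matches on either strand to the ISRE core (a GAAA, any 2 bases and a GAAA), the GAS motif TTCNNNGAA, the 10-base kappa-B consensus or the TATA box TATAAA, and no 2 marked matches overlap.
CXCL9: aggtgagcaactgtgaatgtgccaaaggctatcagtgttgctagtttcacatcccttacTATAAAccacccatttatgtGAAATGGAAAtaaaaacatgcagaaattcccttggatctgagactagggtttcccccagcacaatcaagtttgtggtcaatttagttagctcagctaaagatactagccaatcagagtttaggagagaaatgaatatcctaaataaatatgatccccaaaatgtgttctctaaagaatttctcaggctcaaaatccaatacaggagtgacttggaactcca
CXCL10: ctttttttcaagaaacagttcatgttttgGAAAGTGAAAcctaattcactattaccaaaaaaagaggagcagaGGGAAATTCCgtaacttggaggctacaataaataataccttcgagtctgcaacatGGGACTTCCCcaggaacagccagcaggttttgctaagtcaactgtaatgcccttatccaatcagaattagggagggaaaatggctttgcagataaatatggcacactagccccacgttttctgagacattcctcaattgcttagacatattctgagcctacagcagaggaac
CXCL11: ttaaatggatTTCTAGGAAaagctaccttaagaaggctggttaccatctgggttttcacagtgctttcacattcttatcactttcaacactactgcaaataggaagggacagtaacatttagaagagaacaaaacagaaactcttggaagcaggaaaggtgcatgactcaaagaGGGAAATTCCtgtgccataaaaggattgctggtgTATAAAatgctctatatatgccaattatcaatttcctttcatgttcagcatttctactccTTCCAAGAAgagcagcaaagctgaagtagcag

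All matches lay on the strand of the gene. In CXCL9 the ISRE core GAAATGGAAA began 171 bases before the start of the gene and a TATAAA 191 bases before it, and no kappa-B or GAS match was found in the window. In CXCL10 the ISRE core GAAAGTGAAA began 221 bases before the start, and kappa-B matches, GGGAAATTCC and GGGACTTCCC, began 177 and 122 bases before it. In CXCL11 a kappa-B match with the same letters as the first of CXCL10, GGGAAATTCC, began 76 bases before the start and a TATAAA 42 bases before it. GAS matches began 240 bases before the start and at base 19 after it, and no ISRE core was found in the CXCL11 window. Of 27305 promoters of this length, 3.65% held the ISRE core, 7.88% the GAS motif, 5.72% the kappa-B consensus and 12% the TATAAA. These matches are a description of letters and not of binding, and a window without a match says nothing of sites outside it.

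The first question was how TNF changed the 3 chemokines in primed cells. All 3 rose with both doses of TNF. CXCL9 rose most, 13.1-fold with 100 ng/ml as a mean over the 3 times, CXCL10 rose 3.19-fold and CXCL11 2.88-fold.

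CXCL9 gave signals of 1355 and 1425 in untreated cells at 4 h, 1230 and 1475 at 8 h, and 497 and 535 at 16 h. With TNF at 5 ng/ml it gave 5873 and 6407 at 4 h, 11467 and 12457 at 8 h, and 9004 and 9551 at 16 h. With TNF at 100 ng/ml it gave 9243 and 10923 at 4 h, 14401 and 16477 at 8 h, and 12883 and 16490 at 16 h. The 3 doses did not overlap at any time, and the array with the lowest TNF value lay above the highest untreated one.

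CXCL10 gave 6165 and 8012 in untreated cells at 4 h, 8864 and 10292 at 8 h, and 7526 and 9766 at 16 h. With TNF at 5 ng/ml it gave 17264 and 20431 at 4 h, 21785 and 26140 at 8 h, and 24624 and 32143 at 16 h. With TNF at 100 ng/ml it gave 18935 and 26215 at 4 h, 21585 and 32154 at 8 h, and 26204 and 38653 at 16 h. The untreated arrays lay below both doses at every time, while the arrays of the doses overlapped each other at every time. Over all arrays, those with TNF included, CXCL10 was among the brightest features, since 104 probe sets had a higher mean. Its highest signal, 38653, compares with 49650 for the highest signal of any probe set. Its rank among the arrays without TNF was not computed.

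CXCL11 gave 3791 and 3891 in untreated cells at 4 h, 3738 and 5144 at 8 h, and 1974 and 2661 at 16 h. With TNF at 5 ng/ml it gave 6664 and 8868 at 4 h, 7365 and 11342 at 8 h, and 7995 and 8192 at 16 h. With TNF at 100 ng/ml it gave 8027 and 9123 at 4 h, 8593 and 12515 at 8 h, and 9461 and 11645 at 16 h. Untreated arrays again lay below both doses at every time, and the doses were apart from each other at 16 h alone.

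The second CXCL11 probe set, 211122_s_at, ran from 1880 to 5069 in untreated cells, from 5766 to 8624 with TNF at 5 ng/ml and from 6508 to 11633 at 100 ng/ml. It too had every untreated array below every TNF array of the same time. Signals of different probe sets are not on a common scale of molecules, so CXCL10 is not shown to be more abundant than CXCL9.

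**Figure D1:**
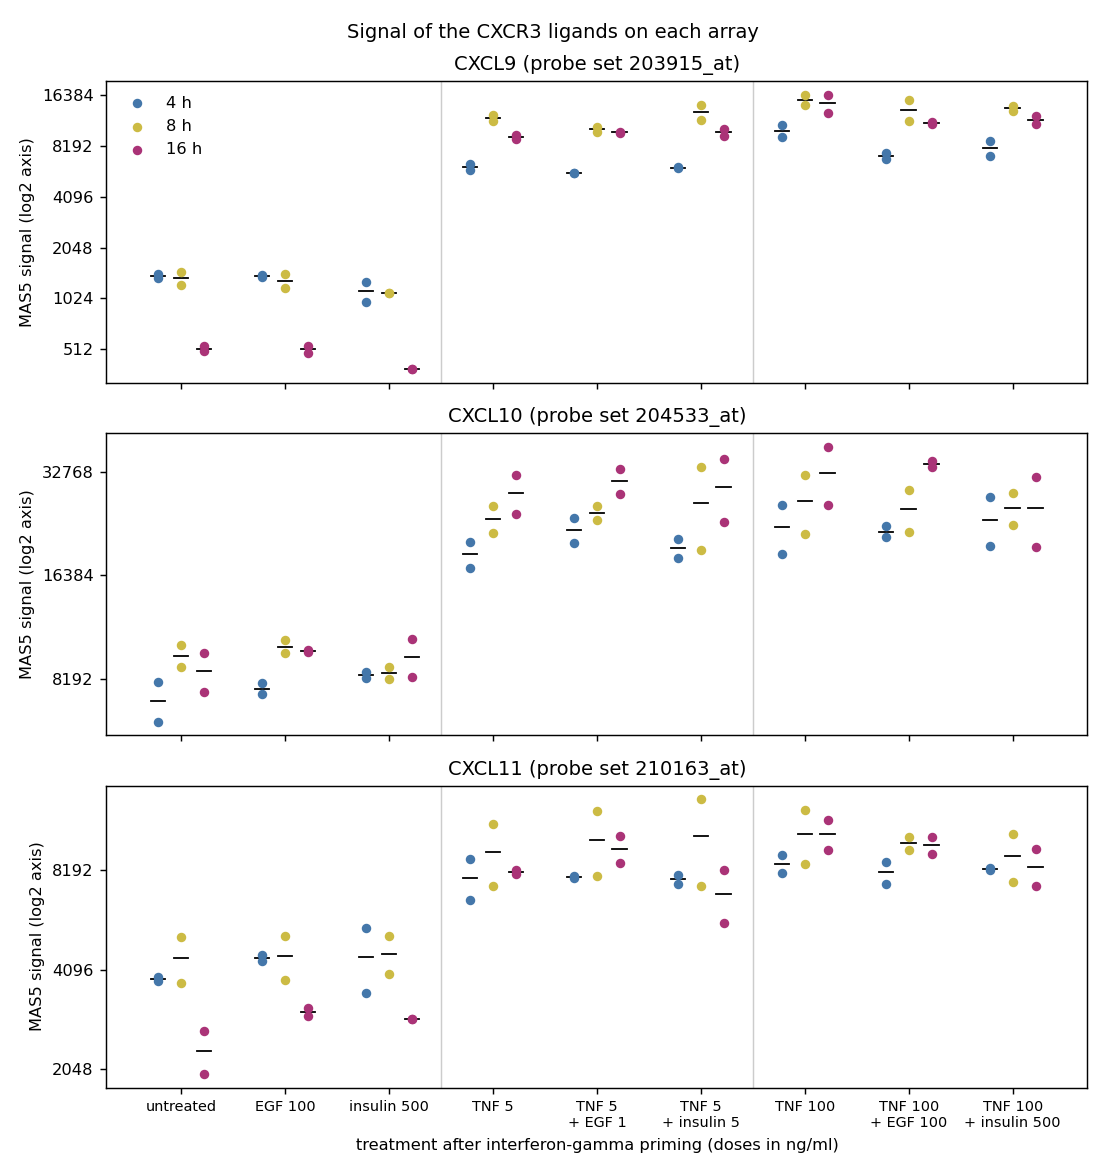
MAS5 signal (log2 axis) of CXCL9, CXCL10 and CXCL11 in every array, by treatment (doses in ng/ml) and time (colour), with a bar at the mean of the 2 arrays of a group. Arrays with TNF lie above those without it in all 3 panels, and CXCL9 without TNF is lowest at 16 h, from 389 to 535.

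These differences were tested on the log2 scale after adding 12.49 to each signal, which slightly understates the change of dim features. The test was limma's moderated F test over the contrasts at 4, 8 and 16 h, with Benjamini-Hochberg adjustment over 13422 probe sets and a level of 0.05. The size given is the mean of the 3 log2 differences with its standard error, from 6 arrays a treatment.

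With TNF at 100 ng/ml CXCL9 rose by 3.71 ± 0.08 (adjusted p = 8.58e-26) and was the 8th largest rise of all probe sets. CXCL10 rose by 1.67 ± 0.15 (adjusted p = 9.5e-10) and CXCL11 by 1.53 ± 0.15 (adjusted p = 8.29e-09), with 1.34 ± 0.16 in 211122_s_at. In that comparison 16.3% of all probe sets were called, 6.69% as higher, and 4.24% were higher without overlap at all 3 times as the 4 members were. Those called higher were 40.9% of the called probe sets, 48.9% after quantile normalization and 58.6% after median centring. With TNF at 5 ng/ml the rises were 3.14 ± 0.08 for CXCL9, 1.48 ± 0.15 for CXCL10 and 1.29 ± 0.15 for CXCL11 (adjusted p = 1.57e-23, 3.05e-08 and 8.06e-07), where 6.81% were called, 4.26% as higher. In 211122_s_at the rise was 1.06 ± 0.16. With 5 ng/ml 3.28% of all probe sets were higher without overlap at all 3 times, as the 4 members were. Both doses were compared with the same untreated arrays.

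Between the doses CXCL9 was higher at 100 than at 5 ng/ml by 0.58 ± 0.08 (adjusted p = 0.000501, limma), without overlap at all 3 times. In this comparison 1.27% of probe sets were called, and 1.33% were higher without overlap at all times. With a fit to these groups alone the adjusted p of CXCL9 was 0.0786. CXCL10 differed by 0.19 (95% interval -0.11 to 0.49) and CXCL11 by 0.24 (95% interval -0.07 to 0.55), and neither passed the test. These intervals still hold rises of 0.49 and 0.55, so equal levels at both doses were not shown.

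The next question was whether the members responded unequally. For each array the log2 signal of a member was set against that of another, which removes the scale of the array, and treatment labels were exchanged within each time in an exact two-sided permutation test with 216 relabellings. The smallest p this allows is 0.00926, and p was adjusted over 21 tests.

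With TNF at 100 ng/ml CXCL9 rose by 2.04 more than CXCL10 and by 2.18 more than CXCL11 on the log2 scale (exact permutation p = 0.00926, adjusted p = 0.0486 for both). With 5 ng/ml the excess of CXCL9 was 1.65 over CXCL10 and 1.84 over CXCL11, with the same adjusted p. The exact permutation p was again the smallest the design gives. The adjusted p rests on these 4 tests, which share CXCL9 and the untreated arrays, being tied at that smallest p. The excess over CXCL10 with 100 ng/ml was 1.18 (4 h), 2.04 (8 h) and 2.90 (16 h). Untreated arrays gave 497 to 1475 for CXCL9 and 6165 to 10292 for CXCL10. Whether the signal of bright probe sets understates a rise in RNA was not tested. CXCL10 and CXCL11 differed in their rise by 0.14 with 100 ng/ml and 0.19 with 5 ng/ml (adjusted exact permutation p = 0.492 and 0.299). None of the 15 remaining tests, on dose, EGF and insulin, passed after adjustment. With labels exchanged within same-numbered pairs at 8 h, where the replicate number pairs the arrays, 144 relabellings remained and the smallest p was 0.0139. The same 4 calls then had an adjusted exact permutation p of 0.0486. The differences of CXCL9 from CXCL10 between the TNF doses (0.39) and from CXCL11 with EGF alone (-0.23) passed there too, with the same adjusted exact permutation p. All of these tests were tied at the smallest p, on which the adjusted value rests. Without the 8 h arrays of replicate 2, which leaves fewer relabellings, the adjusted exact permutation p of the 4 calls was 0.0649, with an excess of 2.02 over CXCL10 and 2.12 over CXCL11 at 100 ng/ml, and of 1.64 and 1.85 at 5 ng/ml.

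**Figure D2:**
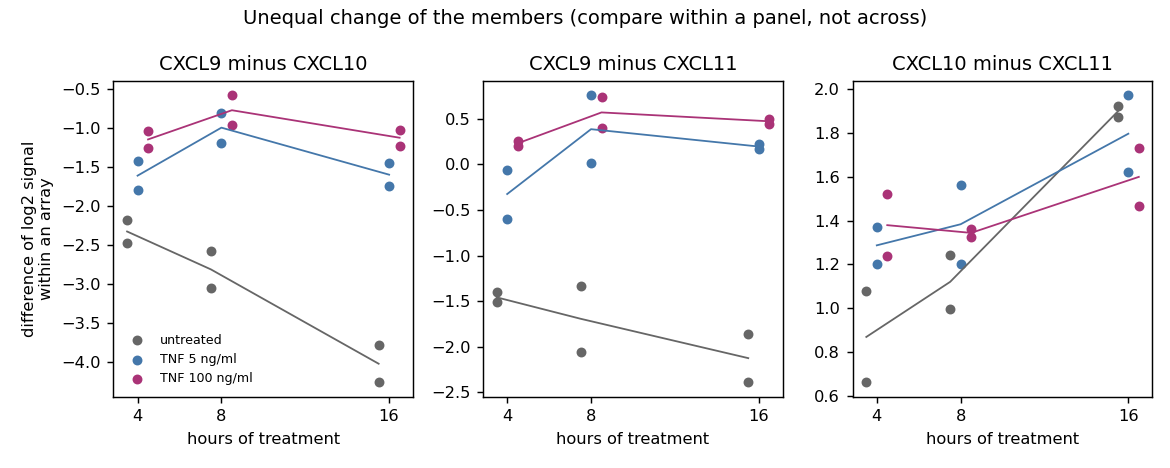
Difference of log2 signal between members within each array (y axis) against hours of treatment (x axis), for untreated cells and TNF at 5 or 100 ng/ml, with lines through the means of 2 arrays. CXCL9 relative to CXCL10 and to CXCL11 is higher with TNF at every time, and the gap over CXCL10 widens from 1.18 at 4 h to 2.90 at 16 h with 100 ng/ml. Points are shifted sideways for view, and the level of a panel depends on the probes.

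Time was compared next, first in untreated cells, where the withdrawal or persistence of interferon-gamma after priming is not stated in the sources used here. For time within a treatment, with or without TNF, limma's F test covered 8 h minus 4 h and 16 h minus 4 h jointly. Its p is thus not one of 16 h against 4 h alone, while the size given is 16 h minus 4 h. CXCL9 fell between 4 and 16 h by 1.41 on the log2 scale (SE 0.15, limma adjusted p = 4.29e-09). The fall came after 8 h, since the difference between 8 and 4 h was -0.04. CXCL11 fell by 0.74 (SE 0.26, adjusted p = 0.0346) and in 211122_s_at by 1.10 (SE 0.28, adjusted p = 0.00722, but 0.182 without replicate 1 at 16 h). CXCL10 differed by 0.29 ± 0.25 and did not pass (adjusted p = 0.553). In this comparison 9.59% of probe sets were called.

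The fall of CXCL11 in 210163_at was near the threshold. Its adjusted p was 0.0559 without the filter, 0.0519 without the intensity trend and 0.0866 with the untreated groups alone. It was 0.423 without replicate 1 at 16 h, 0.127 without replicate 2 at 8 h and 0.0632 without replicate 2 at 16 h.

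With TNF the course turned the other way for CXCL9. It was higher at 16 than at 4 h by 0.60 ± 0.15 with 5 ng/ml (adjusted p = 4.17e-05) and by 0.54 ± 0.15 with 100 ng/ml (limma, adjusted p = 0.00305). The rise was from 4 to 8 h, 0.96 with 5 ng/ml and 0.62 with 100 ng/ml, and the mean was highest at 8 h. From 8 to 16 h the mean signal went from 11960 to 9278 with 5 ng/ml, without overlap of arrays. With 100 ng/ml it went from 15440 to 14690, and the arrays overlapped. Called probe sets were 15.4% with 5 ng/ml and 22.2% with 100 ng/ml, so change over time was common there. The CXCL9 rise with 100 ng/ml had an adjusted p of 0.0781 after median centring, 0.142 with a fit to these groups alone and 0.111 without replicate 2 at 4 h.

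CXCL10 was 0.58 ± 0.25 higher at 16 than at 4 h with TNF at 5 ng/ml and 0.51 ± 0.25 with 100 ng/ml, and CXCL11 0.07 ± 0.26 and 0.29 ± 0.26. None of these 4 differences passed the test.

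Whether the TNF effect itself had a time course was tested as the change of the TNF difference from 4 h to 8 and 16 h. For CXCL9 with 100 ng/ml the log2 difference from untreated cells was 2.84 (4 h), 3.50 (8 h) and 4.79 (16 h), or 7.18-fold, 11.3-fold and 27.6-fold. The gain from 4 to 16 h was 1.95 ± 0.21 (adjusted p = 3.32e-07, limma), where 2.44% of probe sets were called. Over the same span CXCL9 changed by -1.41 in untreated cells and by 0.54 with TNF at 100 ng/ml. The larger part of this gain was thus the fall in untreated cells. With 5 ng/ml the CXCL9 difference was 2.13, 3.14 and 4.14, a gain of 2.00 ± 0.21 (adjusted p = 5.76e-07), where 0.916% were called. CXCL9 itself changed by 0.60 from 4 to 16 h with this dose, against the same fall in untreated cells.

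For CXCL10 the difference with 100 ng/ml was 1.66 (4 h), 1.46 (8 h) and 1.89 (16 h). The gain of 0.23 (95% interval -0.50 to 0.95, adjusted p = 0.957) did not pass the test, and with 5 ng/ml the gain was 0.30 (adjusted p = 0.934).

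For CXCL11 the difference with 100 ng/ml was 1.15 (4 h), 1.24 (8 h) and 2.19 (16 h). The gain of 1.04 ± 0.37 had an adjusted p of 0.241, but of 0.0186 when the replicate number, which pairs the arrays at 8 h, was a block there. In 211122_s_at the gain was 1.61 ± 0.39 (limma, adjusted p = 0.024), with an adjusted p of 0.0817 in a fit to the untreated and TNF groups alone. Leaving out 1 array lifted that value above the threshold for 6 of the 12 arrays, up to 0.187 without replicate 1 of the untreated cells at 16 h. With 5 ng/ml the gains of CXCL11 were 0.82 ± 0.37 in 210163_at and 1.39 ± 0.39 in 211122_s_at (adjusted p = 0.637 and 0.122), and with the block at 8 h the value for 211122_s_at was 0.0141. Whether CXCL9 gained more over time than CXCL10 was not tested.

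**Figure D3:**
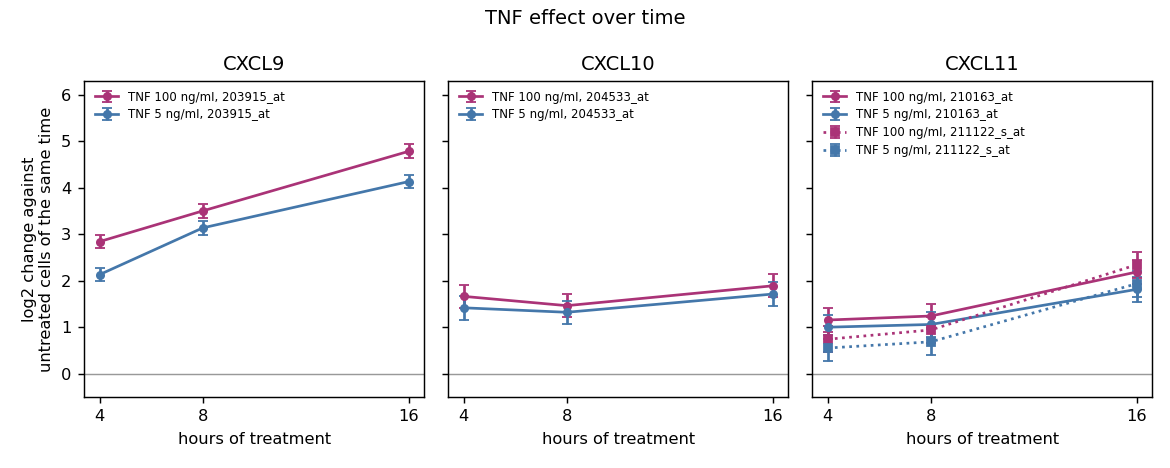
Log2 change with TNF against untreated cells of the same time (y axis, with standard error from the fit over all arrays) at 4, 8 and 16 h for CXCL9, CXCL10 and both probe sets of CXCL11 (dotted for 211122_s_at). The CXCL9 change with 100 ng/ml goes from 2.84 to 4.79, that of CXCL10 stays between 1.46 and 1.89, and that of CXCL11 goes from 1.15 to 2.19 in 210163_at. The untreated reference itself changed by -1.41 for CXCL9 from 4 to 16 h.

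EGF, a growth factor, and insulin, which signals through its own receptor to the kinase AKT, were compared next, alone and on top of TNF. No member passed the test in any of these comparisons. The lowest adjusted p belonged to CXCL9, which was lower with insulin and with both additions to TNF at 100 ng/ml.

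CXCL9 with insulin at 500 ng/ml gave 979 and 1276 at 4 h, 1095 and 1102 at 8 h, and 389 on both arrays at 16 h. Every insulin array was below every untreated array of its time. The difference was -0.33 (95% interval -0.50 to -0.16, limma adjusted p = 0.349), where 0.231% of probe sets were called and 1.11% were lower without overlap at all 3 times. With insulin added to TNF at 100 ng/ml CXCL9 gave 7127 and 8733 at 4 h, 13252 and 14174 at 8 h, and 11071 and 12276 at 16 h. These arrays too were all below those with TNF alone, by -0.28 (95% interval -0.45 to -0.11, adjusted p = 0.404), where 0.499% were called and 0.335% were lower without overlap at all times.

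With EGF at 100 ng/ml alone CXCL9 gave 1368 and 1416 at 4 h, 1172 and 1435 at 8 h, and 487 and 535 at 16 h, which overlapped the untreated arrays at every time. The difference was -0.02 (95% interval -0.19 to 0.15), where 0.596% of probe sets were called. With EGF added to TNF at 100 ng/ml it gave 6900 and 7415 at 4 h, 11589 and 15277 at 8 h, and 11072 and 11378 at 16 h. These lay below TNF alone at 4 and 16 h and overlapped it at 8 h. The difference was -0.36 (95% interval -0.53 to -0.19, limma adjusted p = 0.253), where 0.224% were called. After quantile normalization it was -0.38 with an adjusted p of 0.0132. The interaction of TNF with EGF for CXCL9 was -0.34 ± 0.12 (adjusted p = 1), where 0.0298% were called.

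CXCL10 ran from 7413 to 10604 with EGF and from 8170 to 10738 with insulin, against 6165 to 10292 untreated. Its differences were 0.14 (95% interval -0.15 to 0.44) and 0.08 (-0.22 to 0.37). CXCL11 ran from 2959 to 5167 with EGF and from 2892 to 5478 with insulin, against 1974 to 5144 untreated, with differences of 0.21 (-0.10 to 0.52) and 0.19 (-0.12 to 0.50).

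On top of TNF at 100 ng/ml the difference with EGF was 0.01 (-0.28 to 0.31) for CXCL10 and -0.09 (-0.40 to 0.22) for CXCL11, and with insulin -0.11 (-0.40 to 0.19) and -0.20 (-0.51 to 0.11). The interactions with insulin were 0.05 ± 0.12 for CXCL9, -0.18 ± 0.21 for CXCL10 and -0.38 ± 0.21 for CXCL11 (adjusted p = 1 for all in limma), where 0.00745% were called. TNF at 100 ng/ml with EGF and with insulin differed by -0.08, 0.12 and 0.11 for CXCL9, CXCL10 and CXCL11, and none passed, where 0.976% were called.

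The low doses on top of TNF at 5 ng/ml left no call for any probe set in limma. At an unadjusted p under 0.05 in limma there were 560 probe sets for EGF at 1 ng/ml and 279 for insulin at 5 ng/ml. Both counts are below a share of 0.05 of the 13422 tested, which the level alone would give. The intervals of the 3 chemokines ran from -0.25 to 0.44 with EGF and from -0.35 to 0.37 with insulin.

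TNF at 100 ng/ml raised all 3 also where EGF or insulin was present. In EGF-treated cells the rises were 3.37 ± 0.08 for CXCL9, 1.54 ± 0.15 for CXCL10 and 1.23 ± 0.15 for CXCL11 (adjusted p = 1.53e-24, 7.53e-09 and 1.34e-06), where 14.4% of probe sets were called. In insulin-treated cells they were 3.76 ± 0.08, 1.49 ± 0.15 and 1.14 ± 0.15 (adjusted p = 5.14e-26, 1.35e-08 and 4.09e-06), where 20.3% were called.

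The background counts depended on the pairing at 8 h. With the replicate number as a block there, called probe sets went from 170 to 286 between the TNF doses, from 80 to 131 with EGF, from 31 to 87 with insulin, and from 67 to 164 with insulin added to TNF at 100 ng/ml. They went from 131 to 276 between the high-dose mixtures, from 1 to 19 for the interaction with insulin, from 0 to 1 for EGF at 1 ng/ml, and from 123 to 193 for the time course with TNF at 5 ng/ml. No call of CXCL9, CXCL10 or CXCL11 by its first probe set changed with it in these 8 comparisons.

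**Figure D4:**
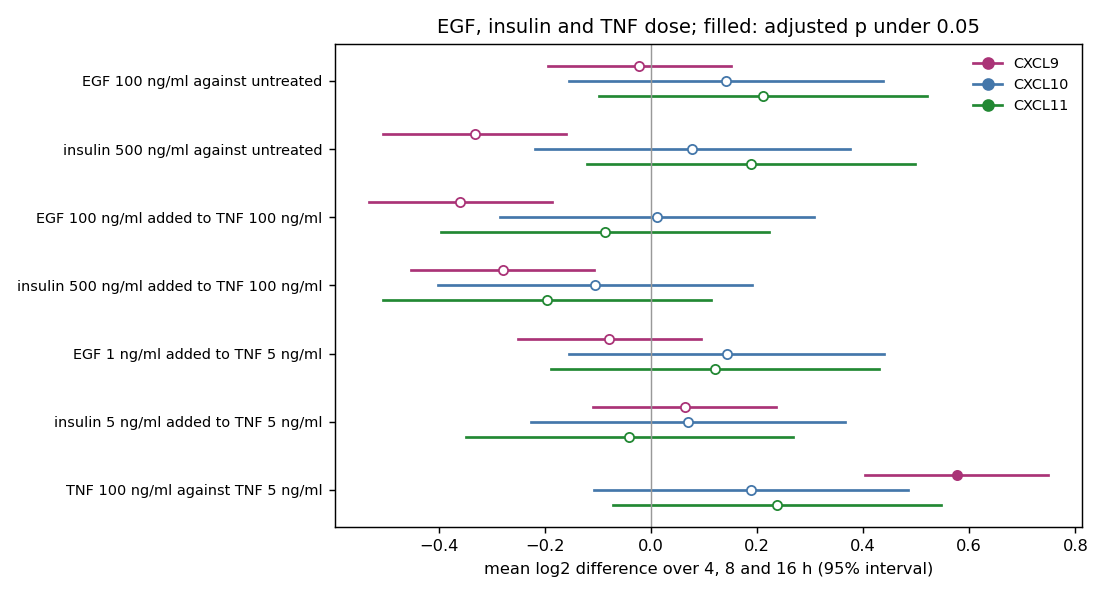
Mean log2 difference over 4, 8 and 16 h with its 95% interval (x axis) for EGF, insulin, their additions to TNF, and the TNF dose (rows), for CXCL9, CXCL10 and CXCL11; filled points passed at an adjusted p of 0.05. Only CXCL9 between the TNF doses, 0.58, is filled, and the CXCL9 intervals for insulin and for both high-dose additions lie below 0.

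The order of the 9 treatments was read within each time. For CXCL9 insulin alone was lowest at all 3 times and TNF at 100 ng/ml alone was highest, and the 6 TNF groups all stood above the 3 without TNF. For all 3 genes the TNF groups were separate from the rest, while within the TNF groups CXCL10 and CXCL11 had neighbours whose arrays mostly overlapped. The spread between the arrays of a group differed among the members. CXCL11 was higher on the second array in 9 of 9 groups at 8 h, by a median of 0.48 on the log2 scale, and CXCL10 in 8 of 9, by 0.26, while CXCL9 was higher in 4 of 9. At 16 h CXCL11 was higher on the second array in 7 of 9 groups, by 0.27, CXCL10 in 7 of 9, by 0.38, and CXCL9 in 6 of 9, by 0.09 (medians). At 4 h the second array was higher in 5 of 9 groups for CXCL11, 4 of 9 for CXCL10 and 3 of 9 for CXCL9. The ACTB ratio was raised on the second arrays at 8 and 16 h, and its part in these values was not tested.

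Replicate differences of 2 members were correlated over the 27 groups after removing the mean of each time, which takes out a shift shared by the groups of a time. Groups were permuted within times, and p was adjusted over 6 tests for each measure. Deviations that many probe sets of a single array share stay in these values. Pairs of other probe sets were not correlated in this way. The p-values thus do not show that the members vary together more than other probe sets do. CXCL10 and CXCL11 gave Pearson r = 0.494 and, with ranks taken within times, Spearman rho = 0.478 (permutation p = 0.012 and 0.018, adjusted 0.018 and 0.027). Without the 2 most distant groups r was 0.391, and in single times it was 0.335 (4 h), 0.446 (8 h) and 0.751 (16 h). CXCL9 and CXCL10 gave r = 0.486 and rho = 0.5 (permutation p = 0.0096 and 0.012, adjusted 0.018 and 0.024), 0.5 without the 2 most distant groups, and 0.389, 0.64 and 0.471 in single times. CXCL9 and CXCL11 gave r = -0.22 and rho = -0.128 (permutation p = 0.28 and 0.55, adjusted 0.34 and 0.66), -0.123 without the 2 most distant groups, and -0.581, -0.072 and 0.074 in single times. The probe sets of CXCL11 gave r = 0.762 with each other. With the time means left in, r was 0.584 for CXCL10 and CXCL11, 0.56 for CXCL9 and CXCL10, and -0.049 for CXCL9 and CXCL11.

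The other genes of the pathways follow, from lists written with earlier results of these data known. Their counts describe the lists and are read against the 6.69% of all probe sets that rose with TNF at 100 ng/ml and the median log2 difference of -0.08.

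Of the interferon-gamma signalling list 8 of 10 genes were measured, and 6 rose with TNF at 100 ng/ml, none fell, with a median of 0.84. The receptor chains IFNGR2 and IFNGR1 rose by 2.16 ± 0.10 and 1.39 ± 0.11, the kinase JAK1 by 0.92 ± 0.13 and the feedback inhibitor SOCS1 by 1.16 ± 0.14. IRF1, a transcription factor induced by interferon-gamma, differed by 0.29 ± 0.10 and did not pass (limma, adjusted p = 0.0996), but it passed after median centring (0.36, adjusted p = 0.0222). PTPN2, one of the 6, did not pass after quantile normalization (limma, adjusted p = 0.0719).

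Of the TNF to NF-kB list 9 of 13 measured genes rose and none fell, with a median of 1.26. They include the inhibitors of NF-kB TNFAIP3 (3.64 ± 0.13) and NFKBIA (2.63 ± 0.11) and the subunits RELB (2.30 ± 0.12) and RELA (1.23 ± 0.08). Of the type I interferon list 5 of 7 measured genes rose and none fell, with a median of 0.38. IRF3 among them did not pass after median centring (limma, adjusted p = 0.109). IFNB1, which encodes interferon beta, differed by 0.49 (4 h), 0.55 (8 h) and 5.80 (16 h).

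Of 11 measured interferon-gamma target genes 7 rose and none fell, with a median of 0.55, and IRF8 passed as well after quantile normalization (limma, adjusted p = 0.036). ICAM1, an adhesion molecule for leukocytes, rose by 2.07 ± 0.14, and IDO1, which degrades tryptophan, by 1.68 ± 0.12, with 0.29, 1.83 and 2.94 at the successive times. The guanylate-binding proteins GBP2 and GBP1 rose by 0.97 ± 0.09 and 0.93 ± 0.10. The immunoproteasome subunits PSMB8 and PSMB9 differed by -0.05 and 0.15 and did not pass.

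Among other chemokines 9 of 10 measured genes rose, none fell, and the median was 3.02. CXCL8, which attracts neutrophils, rose by 5.00 ± 0.19, CX3CL1 by 3.49 ± 0.10, CXCL1 by 3.18 ± 0.14 and CXCL2 by 2.60 ± 0.11. The CXCL9 rise of 3.71 was within their range and those of CXCL10 and CXCL11 were at its low end. CXCL6 rose by 1.40 ± 0.27 and CXCL12 differed by 0.09 ± 0.23. Both lay below CXCL10 (1.67 ± 0.15) and CXCL11 in 210163_at (1.53 ± 0.15). In 211122_s_at CXCL11 rose by 1.34 ± 0.16, which is below CXCL6, and the order of such near values was not tested. In the time course of the TNF effect with 100 ng/ml, CXCL1, CXCL2, CXCL3 and CCL20 lost between 4 and 16 h, by -0.69 to -2.93. CCL5, which attracts T cells, gained 3.99 ± 0.44. Beside CXCL9 with its gain of 1.95, IFNB1 gained 5.31 ± 0.64 and IDO1 2.65 ± 0.29 (limma, adjusted p = 3.32e-07 and 8.29e-07). Each was the only gene of its list called there, of 7 type I interferon genes (median 0.24) and 11 interferon-gamma targets (median 0.04). The median of all probe sets was 0.005, and 2.44% were called.

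The receptor CXCR3 and the scavengers ACKR3 and ACKR1 did not pass the filter on low signal. DPP4, a surface protease that trims these chemokines at the amino end, differed by -0.37 ± 0.14 with TNF at 100 ng/ml and did not pass (limma, adjusted p = 0.107). Of 6 proteins that bind AU-rich elements of mRNA 2 rose, ZFP36 by 0.83 ± 0.12 and ZFP36L1 by 0.57 ± 0.15, and none fell, with a median of -0.03. ZFP36L1 did not pass after median centring (limma, adjusted p = 0.0728).

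The genes whose pattern was most like each member's were taken as the 5 with the highest Pearson correlation over the 27 group means, given as a description without a test. For CXCL9 they were VNN1 (0.963), TNFSF10 (0.96), SLC2A6 (0.955), RGCC (0.954) and TRIM29 (0.952). TNFSF10 encodes the death ligand TRAIL and VNN1 the enzyme pantetheinase. For CXCL10 they were RELB (0.98), TNFAIP2 (0.97), IL32 (0.969), TRIM29 (0.968) and NFKB2 (0.957), where RELB and NFKB2 are the subunits of the non-canonical NF-kB dimer. For CXCL11 they were NFE2L3 (0.962), TNFSF10 (0.947), VNN1 (0.946), RGCC (0.934) and SLC2A6 (0.929).

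So 4 of the 5 genes nearest to CXCL9 were also the nearest to CXCL11, while CXCL10 shared TRIM29 alone with CXCL9. Among the members r was 0.976 for CXCL9 and CXCL11, 0.934 for CXCL9 and CXCL10, and 0.91 for CXCL10 and CXCL11. The points share arrays and the large step between TNF and no TNF, which weighs on every one of these values. Over the 54 arrays in place of group means, ranks changed little for CXCL9, where the 5 genes ranked between 1 and 8, and NFKB2 ranked 31 for CXCL10. Of these 10 genes 7 had a promoter in the RefSeq table. The kappa-B consensus was in those of IL32 and NFE2L3, and the ISRE core in that of TNFSF10.

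The 3 genes lie close together on chromosome 4, and none of the measured genes around them passed the test. With TNF at 100 ng/ml 16.3% of all probe sets were called, so no call among so few genes does not set the locus apart. In the order PPEF2, NAAA, SDAD1, CXCL9, ART3, CXCL10, CXCL11, NUP54, SCARB2 the log2 difference with TNF at 100 ng/ml was -0.24 for NAAA, -0.20 for SDAD1, -0.11 for NUP54 and -0.29 for SCARB2, in limma. PPEF2 and ART3 did not pass the filter on low signal. ART3 stands between CXCL9 and CXCL10 and ran from 27.7 to 157.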

How the data were processed

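The 54 arrays are Affymetrix arrays of HT-29 RNA. The authors deposited linear MAS5 signal intensity per probe set, scaled by them to a common trimmed mean, and MAS5 is named per the submitters' processing notes, without a version. Detection calls and the scaling target were not given in the sources used here. Control probe sets (68 of 22283) were left out. Of the rest 19065 had 1 symbol, 1043 several and 2107 none in the platform annotation.

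Log2(signal + 12.49), the pseudocount being the 10th percentile of all values, was tested with limma (version 3.58.1, R 4.3.3). The fit had 27 group means, an intensity trend and 27 residual degrees of freedom. A probe set was kept where the mean of at least 1 group reached a log2 value of 7.24 (signal 138.9), the median of all. The 19 comparisons were each adjusted over the 13422 kept. The procedure was tested on simulated data.

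The members and lists were chosen with earlier results of these data known, and the description of neighbouring genes was chosen after seeing the data. Named genes are every probe set of the 3 symbols, the 5 genes with the most similar group means, and for each list up to 4 called genes of lowest p and a few fixed genes. List genes have 1 probe set each, that of the highest mean.

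Replicates are biological duplicates by the series' text, and p-values measure the spread between these samples. The number of arrays limits the precision. Replicate numbers come from the labels. Same-numbered arrays deviated together at 8 h, with a correlation over 0.1 in 36 of 36 pairs of groups (median 0.428). At 4 h this held in 27 of 36 (median 0.2) and at 16 h in 31 of 36 (median 0.205). They were taken to pair the arrays at 8 h alone, so a weaker pairing at 4 and 16 h was set aside. The main fit had no replicate block at any time, and blocks were alternatives. Replicate arrays correlated at 0.945 to 0.977 over probe sets.

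Alternatives were the scaling, pseudocount, filter, variance prior, groups in the fit, replicate block, the 8 h arrays of replicate 2, single arrays and the other CXCL11 probe set. The correlation of replicate differences within times, the block within 8 h alone, the scaling of the lists and the alternatives for differences between members, other than the pseudocount, were added after seeing the data.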

Additional observations from a re-analysis of the deposited data

Results flagged for a closer look

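For 3 probe-set results the effect of TNF differed between times by a test of the difference itself (limma F test over the change of the TNF difference from 4 h to 8 and 16 h). The CXCL9 difference from untreated cells was larger at 16 than at 4 h by 1.945 on the log2 scale with 100 ng/ml and by 2.004 with 5 ng/ml. In the CXCL11 probe set 211122_s_at it was larger by 1.607 with 100 ng/ml. Part of each lies in the untreated reference, which from 4 to 16 h changed by -1.41 for CXCL9 and -1.10 in 211122_s_at. All 3 share the untreated arrays at 4 and 16 h with one another. Whether a member stood out for a single array was not tested, since groups of 2 are too small for that test.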

How the results depend on the processing

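The direction of no called value turned. Of 744 values for the 3 genes and their differences under alternatives other than leaving out single arrays, 726 kept their side of the threshold, and with single arrays left out 947 of 954 did. Among uncalled values the sign changed in 10 and 23. The cause of the changes was not tested, apart from those that fewer samples bring by construction. The difference in CXCL9 with EGF added to TNF at 100 ng/ml was -0.3827 after quantile normalization (adjusted p = 0.0132, limma). The CXCL9 rise over time with TNF at 100 ng/ml lost its call after median centring (0.4491, adjusted p = 0.0781) and with the compared groups alone (0.5361, 0.142), and with single arrays left out ran from 0.3582 to 0.7141 (0.00208 to 0.111). The CXCL9 difference between TNF doses was 0.5761 with the compared groups alone (adjusted p = 0.0786). The fall of CXCL11 in untreated cells was -0.7418 without the filter, without the intensity trend and with those groups alone (limma, adjusted p = 0.0559, 0.0519 and 0.0866), and -0.9561 to -0.5275 with single arrays left out (0.0259 to 0.423). The time course of the CXCL11 response to TNF at 100 ng/ml, 1.036, passed with a replicate block over all times (adjusted p = 0.0379), within each time (0.00475) and within 8 h alone (0.0186), and in 211122_s_at (1.607, 0.024). For 211122_s_at with 5 ng/ml (1.39, 0.122 without a block) these blocks gave an adjusted p of 0.0374, 0.00844 and 0.0141 in limma. The replicate block changed no other limma call of the 4 probe sets.

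Without the 8 h arrays of replicate 2 the excess of CXCL9 was 2.0237 and 2.1221 with TNF at 100 ng/ml over CXCL10 and CXCL11 and 1.6368 and 1.8487 with 5 ng/ml (adjusted exact permutation p = 0.0649 each), where fewer relabellings exist. With a replicate block at 8 h, as exchange within pairs, CXCL9 minus CXCL10 between the doses (0.3871) and CXCL9 minus CXCL11 with EGF alone (-0.2329) passed (adjusted exact permutation p = 0.0486). With 211122_s_at the difference between CXCL9 and CXCL11 when EGF was added to TNF at 100 ng/ml was -0.4072 (adjusted exact permutation p = 0.0389). With 1 array left out, CXCL9 minus CXCL11 between the doses ran from 0.2155 to 0.4626 and passed without replicate 1 of TNF at 5 ng/ml at 8 h. CXCL9 minus CXCL10 ran from -0.4907 to -0.3307 with insulin and passed without replicate 2 of untreated cells at 8 h. With EGF added to TNF at 100 ng/ml it ran from -0.4345 to -0.3076 and passed without replicate 2 of TNF at 100 ng/ml at 8 h. In each the lowest adjusted exact permutation p was 0.0389.

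Counts of called probe sets, which serve as background, moved more. Apart from the interactions and low-dose additions, they were lowest with the compared groups alone, and highest with the block within each time. Against untreated cells they were 2194 with TNF at 100 ng/ml (1160 to 3347), 914 at 5 ng/ml (490 to 1705), 80 with EGF (13 to 207) and 31 with insulin (0 to 160). Between TNF doses they were 170 (49 to 503), with EGF added to TNF 30 (2 to 72), with insulin added 67 (2 to 378) and between these mixtures 131 (4 to 544). For TNF in EGF-treated cells they were 1937 (1383 to 3124) and in insulin-treated cells 2726 (1354 to 4201). Over time they were 1287 in untreated cells (360 to 2176), 2063 with TNF at 5 ng/ml (1275 to 2841) and 2983 at 100 ng/ml (1460 to 3659), and for the time course of the TNF effect 327 at 100 ng/ml (103 to 736) and 123 at 5 ng/ml (35 to 375). The interactions gave 4 (0 to 13) with EGF and 1 (0 to 91) with insulin, and the low-dose additions 0 (0 to 1 with EGF, 0 in all with insulin). With single arrays left out the counts moved by over 1.5 times for 14 comparisons, among them 170 between TNF doses (104 to 208), 31 with insulin (11 to 54), 30 with EGF added to TNF (7 to 51), 67 with insulin added (29 to 112), 1287 over time in untreated cells (690 to 1225) and 327 for the time course at 100 ng/ml (189 to 391).

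Each group has 2 arrays, and differences inside the intervals given could not be resolved. No detection call was used, so dim probe sets were left out by signal alone.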
